A study of Rattus norvegicus with 39 samples.

Results

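This comparison sets rats fed ad libitum all their lives (AL) against rats that were calorie restricted first and fed ad libitum later (CR>AL), both killed at 28 months of age. The 6 samples were taken by their diet labels, 3 pools for each diet, out of 39 pools and 13 groups of age and diet in the whole series. All were male BN rats (substrain BN/SsNOlaHSD), fed ad libitum to 2 months of age and then housed singly and assigned to a diet. AL rats stayed on the unsupplemented CRM diet without limit. CR>AL rats received that diet at 55% of the control intake, and were switched to unlimited feeding at 12 months. Other groups serve for context below. They are AL at 6 and 12 months, rats restricted without a switch (CR) at 6, 12 and 28 months, and other 28-month diets. Some of these diets included lipoic acid (LA). In group names +LA marks lipoic acid in the food and > a switch of diet at 12 months. Each sample is RNA from the cerebral cortex of 2 rats, depleted of ribosomal RNA and sequenced. With n = 3 pools a group, errors below are the spread between pools and not between rats. AL pools carry the numbers 7, 8 and 9 and CR>AL pools the numbers 25, 26 and 27, and pool values are given in that order. CPM is a gene's read count scaled to a common library size, with TMM factors between libraries. A log2 fold change is CR>AL relative to AL, and a gene was called differentially expressed (DE) at an adjusted p under 0.05 in edgeR's quasi-likelihood test.

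Calorie restriction lowers food intake without malnutrition and extends lifespan in many animals. In ageing rodent brain it is known to act on mitochondrial energy metabolism, on antioxidant enzymes and on the reactive state of astrocytes and microglia. The study used the term dietary memory for rats moved from restriction to unlimited food with lipoic acid, which kept the longevity of restriction. Plain CR>AL was not among its long-lived groups. Comparing CR>AL with AL asks how the cortex differs after most of adult life on the same food. This comparison alone cannot assign a difference to the earlier restriction. Against AL+LA, a diet that was never restricted, 5 of 17230 genes tested were DE in CR>AL. Whether restriction left the differences from AL was not tested.

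Several measures of the libraries differed between the diets and stand beside every result below. Reads on genes ranged from 3109488 to 4537079 in AL and from 3241339 to 4562089 in CR>AL (exact two-sided permutation test, p = 0.7). The share of reads not aligned was 33.2%, 32.97% and 27.5% in AL and 40.3%, 40.05% and 40.7% in CR>AL. These ranges did not overlap, and the difference in means was 9.12 percentage points (p = 0.1 in the exact permutation test, two-sided, which 3 pools against 3 cannot go below). Among the 18 pools of the 6 other diets at 28 months it was 34.1% to 41.3%, so the AL pools lay below all of them. AL pools 7 and 9 also carried markers of cerebellar neurons, which cortex should lack. A score of 15 such genes (mean log2 CPM) was 7.00 and 6.95 in these pools, 4.56 in AL pool 8, 4.39 to 4.65 in CR>AL, and 4.20 to 5.23 in the 18 other pools. Gabra6, a GABA receptor subunit of cerebellar granule cells, had 2901, 1 and 2293 reads in AL and 1, 9 and 10 in CR>AL. Counts for the gene lists are therefore also given without AL pools 7 and 9, where AL is pool 8 alone and is assumed to vary like CR>AL, and with the score as a covariate over all 39 pools. The share of unaligned reads separates the diets completely, so its part and that of diet cannot be told apart.

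**Figure D1:**
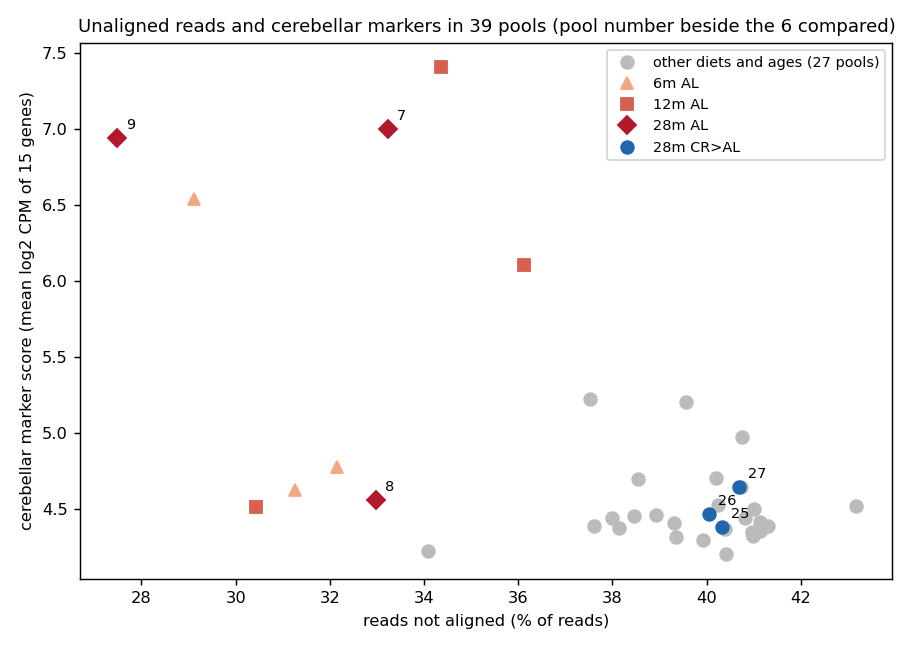
Share of reads not aligned (x axis, % of reads) against the cerebellar marker score (y axis, mean log2 CPM of 15 genes) in the 39 pools, with numbers beside the 6 pools compared. CR>AL pools lie among the other diets at 40.05% to 40.7% unaligned, and AL pools 7, 8 and 9 lie at 27.5% to 33.2%, with pools 7 and 9 near a score of 7.

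In this comparison 1202 of 17230 genes tested (6.98%) were DE, 760 higher in CR>AL (4.41%) and 442 lower (2.57%). The median size of their log2 fold changes was 0.83, and 417 changed at least by 1. Pools of the diets did not overlap for 1139 of the 1202, while 25.3% of all genes tested had pools that did not overlap. The median log2 fold change of all genes was -0.0023. Without AL pools 7 and 9, 1173 of the 1202 kept their direction and 532 were called in it, and with the covariate 520 were. Leaving out 1 pool at a time gave 893, 1978 and 619 DE genes without AL pools 7, 8 and 9 and 691, 516 and 624 without CR>AL pools 25, 26 and 27, and 379 genes were called in all 6 of these fits. Pools of 1 diet also differed from each other beyond counting noise, by 10.7 to 14 (AL) and 3.95 to 8.67 (CR>AL) in chi-square divided by its degrees of freedom.

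**Figure D2:**
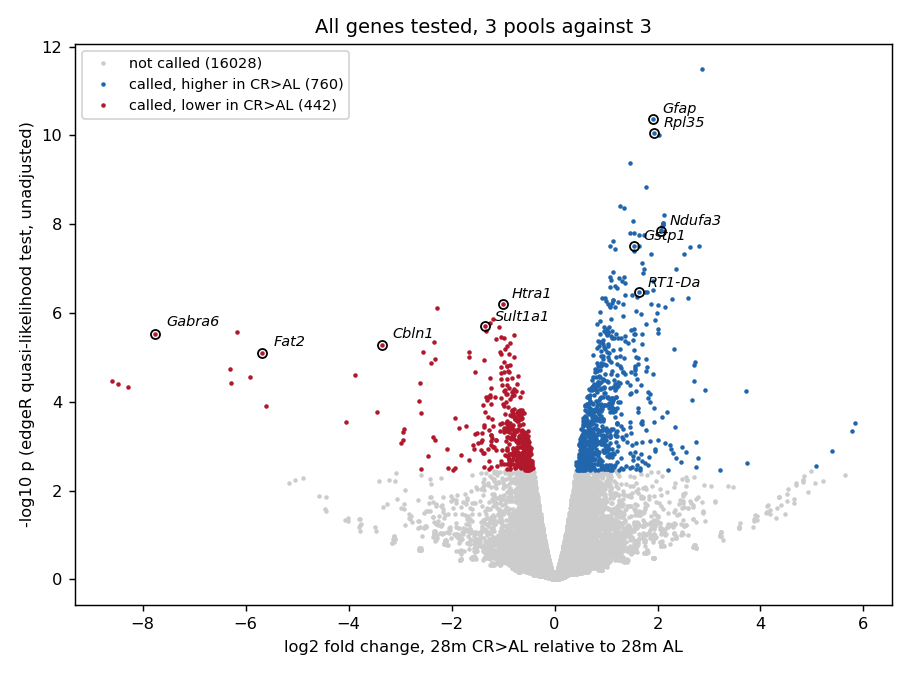
Log2 fold change of CR>AL relative to AL (x axis) against -log10 of the unadjusted p of edgeR's quasi-likelihood test (y axis) for the 17230 genes tested. The 760 genes called higher cluster at moderate changes with small p, and the genes far to the left include Gabra6, Fat2 and Cbln1 of cerebellar granule cells.

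Gene names were available for 1669 of the tested identifiers, because names come from the study's own gene tables. Of these 791 (47.4%) were DE here, 519 higher (31.1%) and 272 lower (16.3%), with a median log2 fold change of 0.36. Counts of list members below must be read against these shares and not against the 6.98% of all genes. The reason is that a gene was named when the study had called it, in part on these same pools. These shares hold for the main fit only, and none is given for the other fits. With the covariate 644 of the 17230 genes were DE, 455 higher and 189 lower, so list counts in that fit start from fewer calls.

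The astrocyte, lysosomal and cytoskeletal genes Gfap, Ctsb and Tmsb10 were among the clearest rises. Gfap, the intermediate filament of astrocytes, measured 140.4, 203 and 171 CPM in AL and 665, 607 and 647 CPM in CR>AL. Every CR>AL pool lay above every AL pool, and the log2 fold change was 1.91 (SE 0.14, adjusted p = 3.6e-07). In the 18 pools of the other 28-month diets Gfap measured 390.3 to 862 CPM, and in 6- and 12-month AL it averaged 384 ± 37.8 and 633 ± 62.9 CPM (SD, n = 3 each), so the low values were those of 28-month AL. Ctsb, the lysosomal protease cathepsin B, measured 168, 184 and 168 CPM in AL and 426, 384 and 443 CPM in CR>AL. All CR>AL pools were higher, by 1.28 log2 units (SE 0.13, adjusted p = 9.4e-06). For Tmsb10, an actin-monomer-binding thymosin, the values were 17.8, 24.4 and 22.9 CPM in AL and 67.1, 80.9 and 72.9 CPM in CR>AL. Its pools did not overlap and its log2 fold change was 1.78 (SE 0.17, adjusted p = 4.2e-06). Ywhah, the eta member of the 14-3-3 adaptor proteins, rose by 1.47 log2 units (SE 0.13, adjusted p = 1.4e-06), from 336, 349.8 and 360.0 CPM in AL to 950.4, 1038 and 881 CPM in CR>AL. Pcp4, a calmodulin-binding peptide of neurons, rose by 1.55 log2 units (SE 0.17, adjusted p = 1.5e-05), and Dbndd2 by 1.53 log2 units (SE 0.16, adjusted p = 1.2e-05). These 6 genes stayed called without any 1 pool, without AL pools 7 and 9, and with the covariate.

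**Figure D3:**
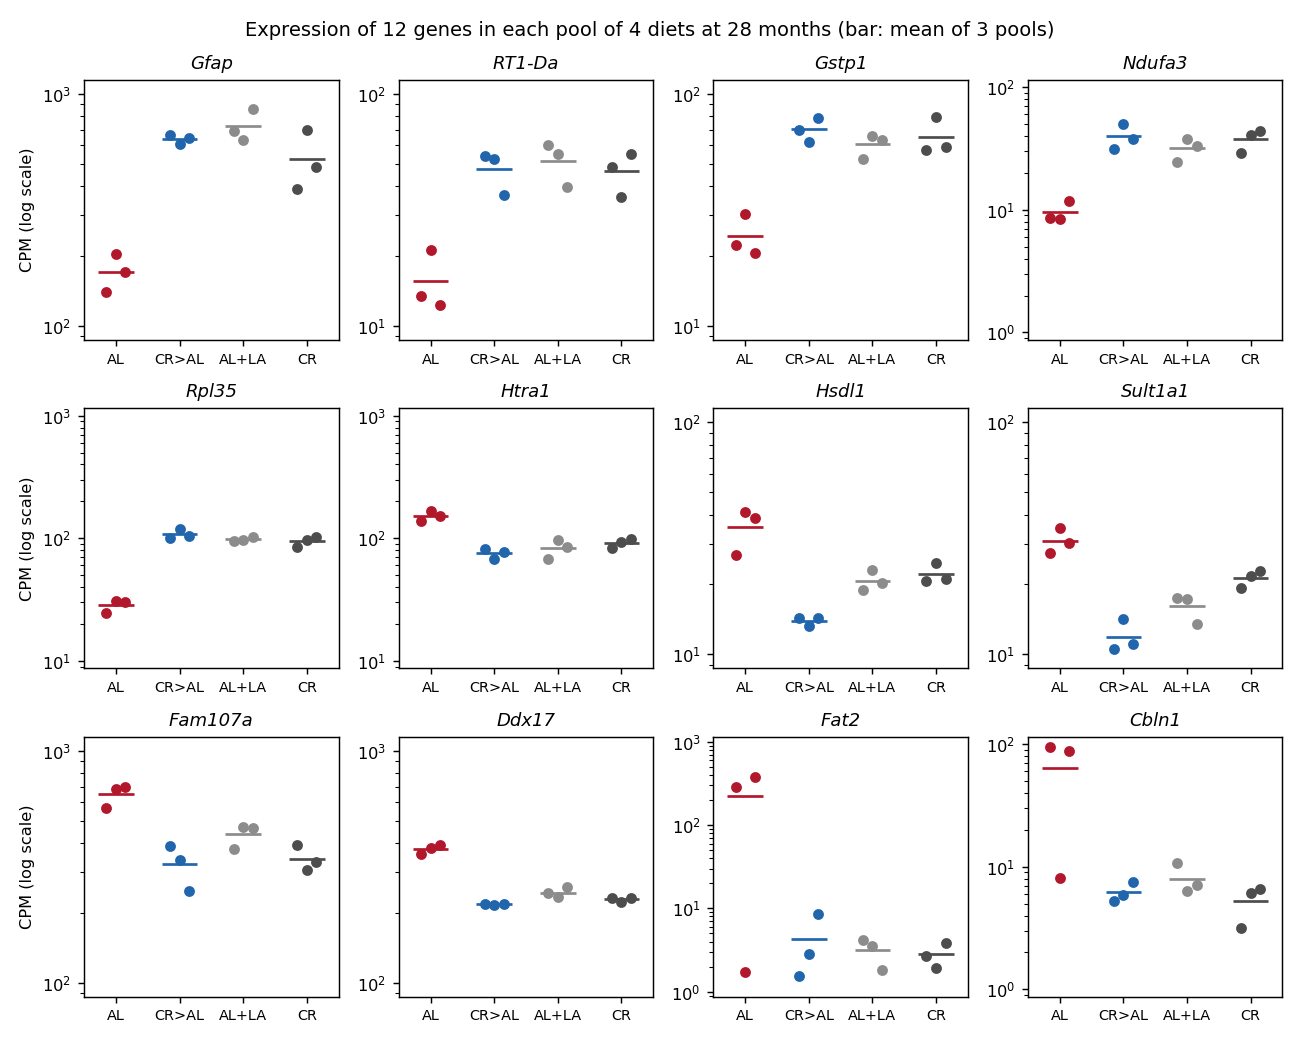
CPM of 12 genes (log axes) in the 3 pools of AL, CR>AL, AL+LA (ad libitum with lipoic acid) and CR (lifelong restriction) at 28 months, with bars at group means. For Gfap the AL pools lie at 140.4 to 203 CPM and the CR>AL pools at 607 to 665 CPM, among those of AL+LA and CR, while for Fat2 and Cbln1 AL pool 8 lies near the other diets and pools 7 and 9 far above.

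MHC class II genes, which microglia and other antigen-presenting cells use to show peptides to T cells, were higher in CR>AL as a group. The rat RT1-D and RT1-B molecules each pair an alpha chain (RT1-Da, RT1-Ba) with a beta chain (RT1-Db1, RT1-Bb), and the 4 genes share a promoter element, the Y box, known to be bound by NF-Y. Shown here because these members move together, the 150 bases before each start, from RefSeq on build GRCr8, carry CTGATTGG (in capitals), which was searched on both strands. They lie at chr20:4515265-4515414 (+ strand, RT1-Da), chr20:4560163-4560312 (- strand, RT1-Db1), chr20:4576907-4577056 (+ strand, RT1-Ba) and chr20:4604119-4604268 (- strand, RT1-Bb):
RT1-Da: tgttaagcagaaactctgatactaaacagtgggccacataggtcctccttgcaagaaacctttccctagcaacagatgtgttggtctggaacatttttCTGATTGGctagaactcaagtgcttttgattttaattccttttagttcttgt
RT1-Db1: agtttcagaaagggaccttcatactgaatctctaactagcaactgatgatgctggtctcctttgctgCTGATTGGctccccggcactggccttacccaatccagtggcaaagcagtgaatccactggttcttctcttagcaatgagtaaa
RT1-Ba: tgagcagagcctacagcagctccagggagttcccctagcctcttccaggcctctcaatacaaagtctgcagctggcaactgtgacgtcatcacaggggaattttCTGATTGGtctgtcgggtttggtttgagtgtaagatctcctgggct
RT1-Bb: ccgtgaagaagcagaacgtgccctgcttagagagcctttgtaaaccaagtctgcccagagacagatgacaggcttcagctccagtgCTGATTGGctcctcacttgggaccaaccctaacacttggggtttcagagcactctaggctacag
The first base of the capitals is 52, 83, 46 and 64 bases before the start, in that order. Of all 33469 rat promoters in the same table, 3.19% hold these letters in the 250 bases before the start, and the match is a description of sequence, not a measured site.

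RT1-Da measured 13.5, 21.2 and 12.3 CPM in AL and 53.7, 52.4 and 36.7 CPM in CR>AL, with no overlap and a log2 fold change of 1.63 (SE 0.21, adjusted p = 0.00012). RT1-Ba measured 15.1, 28.4 and 22 CPM in AL and 76.7, 69.4 and 48.5 CPM in CR>AL, RT1-Db1 10.8, 18.3 and 11.8 CPM in AL and 45, 44.4 and 25.7 CPM in CR>AL, and RT1-Bb 4.69, 13.9 and 5.56 CPM in AL and 27, 22.8 and 19.2 CPM in CR>AL. All 4 genes were higher in every CR>AL pool than in any AL pool, with AL pool 8 the highest of AL and CR>AL pool 27 the lowest of CR>AL. Their log2 fold changes were 1.6 (SE 0.21, adjusted p = 0.00014) for RT1-Ba, 1.52 (SE 0.24, adjusted p = 0.00059) for RT1-Db1 and 1.57 (SE 0.31, adjusted p = 0.0035) for RT1-Bb. Cd74, the invariant chain that escorts class II molecules, rose as well (log2 fold change 1.08), whereas the class I genes RT1-A2 (0.46) and RT1-A1 (0.083) did not pass the test. The list thus had 5 of 7 members higher and 0 lower, against 31.1% and 16.3% of named genes, with a median log2 fold change of 1.52. Counts were 3 higher and 0 lower without AL pools 7 and 9, and 2 higher and 0 lower with the cerebellar score as a covariate. RT1-Bb was called in neither, with log2 fold changes of 0.72 (adjusted p = 0.17) and 1.36 (adjusted p = 0.15), and RT1-Db1 was called in the first, with 1.07 (adjusted p = 0.0064), and not in the second, with 1.59 (adjusted p = 0.067). RT1-Da and RT1-Ba were called in both and Cd74 in neither, and the median of the list was 0.72 and 1.36, in that order. RT1-Da went the opposite way with restriction at 12 months. It averaged 90.7 ± 53.9 CPM in AL and 16.1 ± 7.72 CPM in CR (SD, n = 3 pools each). The log2 fold change was -2.34 for CR relative to AL (adjusted p = 0.00036). The 12-month AL pools 4, 5 and 6 measured 53.8, 152.5 and 65.8 CPM. Of these, pool 5 had 494091 reads on genes, the fewest of all 39 pools. Of 5 named microglial markers 2 rose, and 0 did without AL pools 7 and 9 or with the covariate. The 2 calls in the list became 0 without pool 9, 25 or 27 and 1 without pool 7 or 26. Their summed level was 55.1 to 75.7 CPM in AL and 82.9 to 88.8 CPM in CR>AL, and in bulk cortex more cells of a type and more RNA per cell cannot be told apart.

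Nuclear genes for subunits of the respiratory chain and ATP synthase, which the mitochondrion imports to make ATP, were mostly higher in CR>AL. Of 41 named identifiers 30 rose and 1 fell, with a median log2 fold change of 0.80 against 0.36 for all named genes. Ndufa3, an accessory subunit of complex I, measured 8.57, 8.41 and 11.8 CPM in AL and 31.4, 50.5 and 37.5 CPM in CR>AL. CR>AL pool 26 was the highest and the lowest CR>AL pool was still above every AL pool, with a log2 fold change of 2.06 (SE 0.22, adjusted p = 1.4e-05). Atp5i, a small subunit of ATP synthase, measured 22.6, 14.5 and 27.5 CPM in AL and 57.8, 91 and 63.1 CPM in CR>AL and rose by 1.71 log2 units (SE 0.21, adjusted p = 6.2e-05). Uqcrb of complex III rose by 1.47 log2 units (SE 0.16, adjusted p = 1.5e-05), from 30.6, 29.3 and 22.2 CPM in AL to 72.1, 80.7 and 73.4 CPM, and Ndufab1, the acyl carrier protein that sits in complex I, by 1.22 log2 units (SE 0.16, adjusted p = 0.0001). Subunits of cytochrome c oxidase that rose included Cox6a1 (log2 fold change 0.87), Cox5b (0.87) and Cox4i1 (0.57). The member that fell was Atp5c1, the gamma subunit of ATP synthase (log2 fold change -0.88). Counts for the list were 30 higher and 1 lower without AL pools 7 and 9, and 27 higher and 0 lower with the cerebellar score as a covariate, and 20 members were called without CR>AL pool 26.

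Subunits encoded by the mitochondrial genome, 3 of 13 of which had a name in the tables, did not move together. ATP8, of ATP synthase, measured 819, 894 and 1821 CPM in AL and 708, 602 and 545 CPM in CR>AL and fell, with a log2 fold change of -0.92 (SE 0.22, adjusted p = 0.014). AL pool 9 had more than any other pool, and the call was lost without pools 9, 26 and 27 (adjusted p = 0.091, 0.058 and 0.069, in that order). ND3, of complex I, measured 407, 369 and 538 CPM in AL and 587, 650.4 and 587 CPM in CR>AL, and its log2 fold change of 0.48 (SE 0.14, adjusted p = 0.045) was lost without pools 7, 8, 25, 26 and 27 (adjusted p = 0.12, 0.059, 0.12, 0.2 and 0.11, in that order). COX2, of cytochrome c oxidase, had 2085, 2189 and 2581 CPM in AL and 2818, 2766 and 2568 CPM in CR>AL, overlapping pools and a log2 fold change of 0.26 (SE 0.13, adjusted p = 0.26). Counts for these 3 genes were 1 higher and 1 lower without AL pools 7 and 9, and 0 higher and 0 lower with the cerebellar score as a covariate. Among 6 named genes of glycolysis and the citric acid cycle 4 rose and 0 fell. Aldoa, the muscle-type aldolase that is also made in brain, rose by 0.92 log2 units (SE 0.15, adjusted p = 0.00063), from 110.4, 164 and 128 CPM to 262, 245 and 248 CPM. Aldoa was at a log2 fold change of 0.62 (adjusted p = 0.0095) without AL pools 7 and 9 and 0.67 (adjusted p = 0.12) with the covariate. Counts for this list were 2 higher and 0 lower without AL pools 7 and 9, and 2 higher and 0 lower with the cerebellar score as a covariate. With 1 pool fewer, the 4 calls were 1 without pool 9, 26 or 27 and 2 without pool 7.

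Ribosomal protein genes gave the longest list of rises. Of 61 identifiers under 42 symbols 39 rose and 3 fell, with a median log2 fold change of 0.65. Rpl35, of the large subunit, measured 24.5, 30.7 and 30.3 CPM in AL and 101, 119 and 104 CPM in CR>AL and rose by 1.94 log2 units (SE 0.15, adjusted p = 4.2e-07). Rpl8 measured 27.3, 28.1 and 23.8 CPM in AL and 99.4, 129 and 94.2 CPM in CR>AL and rose by 2.04 log2 units (SE 0.16, adjusted p = 4.2e-07), and Rps29 rose by 1.65 log2 units (SE 0.18, adjusted p = 2.1e-05) from 109.8, 66.1 and 99.5 CPM to 242, 369 and 249 CPM. In each of these genes the pools were well apart. Several of these symbols stand for more than 1 identifier (3 each for Rpl8 and Rps29 and 5 for RPL38), and with multiply mapping reads left out by the authors, the share of each near-identical copy or pseudogene is uncertain. Counts for the list were 33 higher and 3 lower without AL pools 7 and 9, and 40 higher and 2 lower with the cerebellar score as a covariate. The 42 called members became 23 without pool 26.

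Residual ribosomal RNA moved in the same direction. Rn28s, the 28S ribosomal RNA that the depletion step should remove, measured 5596, 6075 and 2928 CPM in AL and 22319, 15859 and 24269.5 CPM in CR>AL, with AL pool 9 lowest, and a log2 fold change of 2.11 (SE 0.22, adjusted p = 1.2e-05). Together with 6 identifiers that followed it across the 39 pools (Pearson r of log2, CPM + 1 over 0.99, a description) it took 2.55%, 2.84% and 1.42% of reads on genes in AL and 9.32%, 6.73% and 9.6% in CR>AL. The part of this in the other results was not tested. Scaling by RLE in place of TMM moved the median log2 fold change of all genes by -0.0097.

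Enzymes that neutralise oxidants and bind metals were higher in CR>AL. In the list of glutathione, thioredoxin and metallothionein genes 10 of 14 named members rose and 0 fell (median log2 fold change 0.74). Gstp1, a glutathione S-transferase, measured 22.2, 30.5 and 20.6 CPM in AL and 69.9, 62.2 and 78.5 CPM in CR>AL, and its pools were far apart, with a log2 fold change of 1.54 (SE 0.17, adjusted p = 2.1e-05). Gstm1 of the mu class measured 49.6, 56 and 58.6 CPM in AL and 112, 109.7 and 105 CPM in CR>AL and rose by 1.0 log2 units (SE 0.14, adjusted p = 0.00016). Txnrd1, thioredoxin reductase, rose by 0.84 log2 units (SE 0.16, adjusted p = 0.0026), and Mt3, the brain metallothionein, by 0.79 log2 units (SE 0.15, adjusted p = 0.0033). Sod1 (log2 fold change 0.73), Prdx5 (0.74) and Gpx1 (0.71) also rose, while Gstt3 (0.44), Txnip (0.29), Hmox2 (0.14) and Gsto1 (-0.29) did not pass the test. Counts were 7 higher and 0 lower without AL pools 7 and 9, and 7 higher and 0 lower with the cerebellar score as a covariate. The 10 calls in the list became 5 without pool 26 or 27 and 6 without pool 9.

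Genes that were lower in CR>AL included genes linked to stress hormones and to sulfation. Fam107a, an actin-binding protein induced by glucocorticoids, measured 566, 683 and 699.6 CPM in AL and 390.1, 337 and 249 CPM in CR>AL and changed by -0.99 log2 units (SE 0.15, adjusted p = 0.00055). The pools did not overlap, and AL pool 7 was the lowest of AL. Sult1a1, a phenol sulfotransferase, measured 27.3, 35.1 and 30.1 CPM in AL and 10.6, 14.1 and 11 CPM in CR>AL and changed by -1.34 log2 units (SE 0.20, adjusted p = 0.00041). Hsd11b1, which regenerates active glucocorticoid, fell by 0.62 on the log2 scale (adjusted p = 0.029), a call lost without pools 7, 9, 25 and 27 (adjusted p = 0.12, 0.096, 0.077 and 0.16, in that order). In the list of glucocorticoid and fasting responsive genes 4 of 7 members fell and 1, Mt2A, rose. These counts were 1 higher and 3 lower without AL pools 7 and 9, and 0 higher and 3 lower with the cerebellar score as a covariate. With 1 pool fewer, the 5 calls were 3 without pool 7, 9 or 27.

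Htra1, a secreted serine protease, had the smallest p of the genes that fell. It measured 139, 168 and 153 CPM in AL and 82.3, 68.3 and 76.7 CPM in CR>AL, with a log2 fold change of -1.0 (SE 0.14, adjusted p = 0.00017), and no AL pool came near a CR>AL pool. Hsdl1, of the hydroxysteroid dehydrogenase family, fell from 26.7, 40.9 and 38.7 CPM to 14.3, 13.3 and 14.4 CPM (log2 fold change -1.33, SE 0.20, adjusted p = 0.00047), and Bccip, a partner of BRCA2, from 42.4, 36.3 and 36.6 CPM to 14.6, 19.1 and 18 CPM (log2 fold change -1.14, SE 0.18, adjusted p = 0.00055). The DEAD-box RNA helicases Ddx17 and Ddx3x were lower too. Ddx17 measured 359.9, 381 and 393 CPM in AL and 218, 217 and 219 CPM in CR>AL, close within each diet, and changed by -0.78 log2 units (SE 0.12, adjusted p = 0.0005), and Ddx3x changed by -0.87 log2 units (SE 0.14, adjusted p = 0.00065). Rfx7, a winged-helix transcription factor, changed by -0.93 log2 units (SE 0.15, adjusted p = 0.00071). Camk4, a calcium and calmodulin dependent kinase, is abundant in cerebellar granule cells as well as in cortex. It measured 89.2, 65.5 and 105 CPM in AL and 41.3, 32 and 40 CPM in CR>AL. Its change was -1.20 log2 units (SE 0.17, adjusted p = 0.0003). Without AL pools 7 and 9 it was -0.80, and with the cerebellar score as a covariate -0.61 (adjusted p = 0.11). The microRNA precursor gene rno-mir-1843 measured 38.8, 9.86 and 39.1 CPM in AL and 5.9, 5.66 and 5.9 CPM in CR>AL. Its AL pools 7 and 9 were high and pool 8 nearer to CR>AL. The log2 fold change was -2.34 (SE 0.37, adjusted p = 0.00063). It became -0.76 without AL pools 7 and 9 and -1.82 (adjusted p = 0.035) with the covariate.

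Neurotransmitter receptors and channels that were called were mostly lower in CR>AL, and AL pools 7 and 9, where the cerebellar markers were high, had the highest values of Grik2 among the 6 pools. Of 7 named glutamate receptor genes 5 fell (median log2 fold change -0.73), of 3 GABA receptor genes 2 fell, and of 12 voltage-gated channel genes 6 fell and 1 rose. Grin2c, an NMDA receptor subunit of granule cells, measured 39.4, 36.8 and 53.7 CPM in AL and 27.3, 19.4 and 29 CPM in CR>AL and changed by -0.78 log2 units (SE 0.19, adjusted p = 0.018), lost without pools 9 and 26 (adjusted p = 0.12 and 0.12, in that order). Grik2, a kainate receptor subunit, measured 207, 134 and 205 CPM in AL and 121, 114 and 103 CPM in CR>AL and changed by -0.68 log2 units (SE 0.16, adjusted p = 0.012), lost without pools 9 and 27 (adjusted p = 0.062 and 0.071, in that order). Grik2 was at a log2 fold change of -0.25 (adjusted p = 0.5) without AL pools 7 and 9 and -0.24 (adjusted p = 0.43) with the covariate. The glutamate receptor counts were 0 higher and 0 lower without AL pools 7 and 9, and 0 higher and 0 lower with the cerebellar score as a covariate, with medians of -0.25 and -0.24. The 5 called members became 2 without pool 9 and 3 without pool 26 or 27. For the channels they were 1 higher and 1 lower without AL pools 7 and 9, and 1 higher and 1 lower with the cerebellar score as a covariate. The 7 calls in the list became 0 without pool 26, 1 without pool 9, 2 without pool 25 and 3 without pool 27. The GABA receptor genes had 0 higher and 1 lower without AL pools 7 and 9, and 0 higher and 1 lower with the cerebellar score as a covariate, and 1 call without pool 7, 9, 26 or 27. Cacna1a, the P/Q-type calcium channel pore, changed by -0.60 log2 units (SE 0.14, adjusted p = 0.014), lost without pools 9, 26 and 27 (adjusted p = 0.089, 0.089 and 0.065, in that order).

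Genes of transmitter release that were called were higher in CR>AL. Among 11 named genes 6 rose and 0 fell. Syt1, the calcium sensor of vesicle fusion, measured 145, 209.7 and 153 CPM in AL and 322, 346 and 252 CPM in CR>AL and rose by 0.87 log2 units (SE 0.16, adjusted p = 0.0021). Stx1a, a plasma membrane SNARE, measured 12.9, 22.3 and 12 CPM in AL and 35.4, 31.3 and 34.9 CPM in CR>AL and rose by 1.14 log2 units (SE 0.22, adjusted p = 0.003), with AL pool 8 the highest of AL, and its value was 0.60 (adjusted p = 0.17) without pools 7 and 9. Rab3b, a vesicle GTPase, rose by 0.82 log2 units (SE 0.17, adjusted p = 0.0068). Counts were 2 higher and 1 lower without AL pools 7 and 9, and 2 higher and 1 lower with the cerebellar score as a covariate. With 1 pool fewer, the 6 calls were 3 without pool 26 or 27. Among 9 postsynaptic scaffold and kinase genes 2 rose and 4 fell. Nrgn, a calmodulin-binding protein of forebrain spines, rose by 0.88 log2 units (SE 0.16, adjusted p = 0.0017) and Homer3, a scaffold of Purkinje cell spines, measured 20, 11.6 and 16.2 CPM in AL and 5.28, 5.22 and 4.62 CPM in CR>AL and changed by -1.66 log2 units (SE 0.27, adjusted p = 0.00088). Nrgn was at a log2 fold change of 0.52 (adjusted p = 0.056) without AL pools 7 and 9 and 0.61 (adjusted p = 0.16) with the covariate, and Homer3 was at a log2 fold change of -1.19 (adjusted p = 0.083) without AL pools 7 and 9 and -0.68 (adjusted p = 0.38) with the covariate. Postsynaptic counts were 0 higher and 2 lower without AL pools 7 and 9, and 0 higher and 1 lower with the cerebellar score as a covariate. The 6 called members became 3 without pool 26. Peptide and granule genes had 5 of 10 identifiers higher and 1 lower. Pcsk1n, the proSAAS inhibitor of a prohormone convertase, measured 11.8, 18 and 13 CPM in AL and 50, 43.1 and 48 CPM in CR>AL and rose by 1.74 log2 units (SE 0.19, adjusted p = 1.5e-05), Npy (neuropeptide Y) by 1.27 log2 units (SE 0.26, adjusted p = 0.0051) and Sst (somatostatin) by 0.85 log2 units (SE 0.17, adjusted p = 0.0054). Scg2, a granin, fell from 119, 176 and 131 CPM to 83.5, 67.2 and 99.1 CPM (log2 fold change -0.76, SE 0.17, adjusted p = 0.009), a call lost without pool 26 (adjusted p = 0.068). Counts for peptides were 2 higher and 1 lower without AL pools 7 and 9, and 3 higher and 1 lower with the cerebellar score as a covariate.

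**Figure D4:**
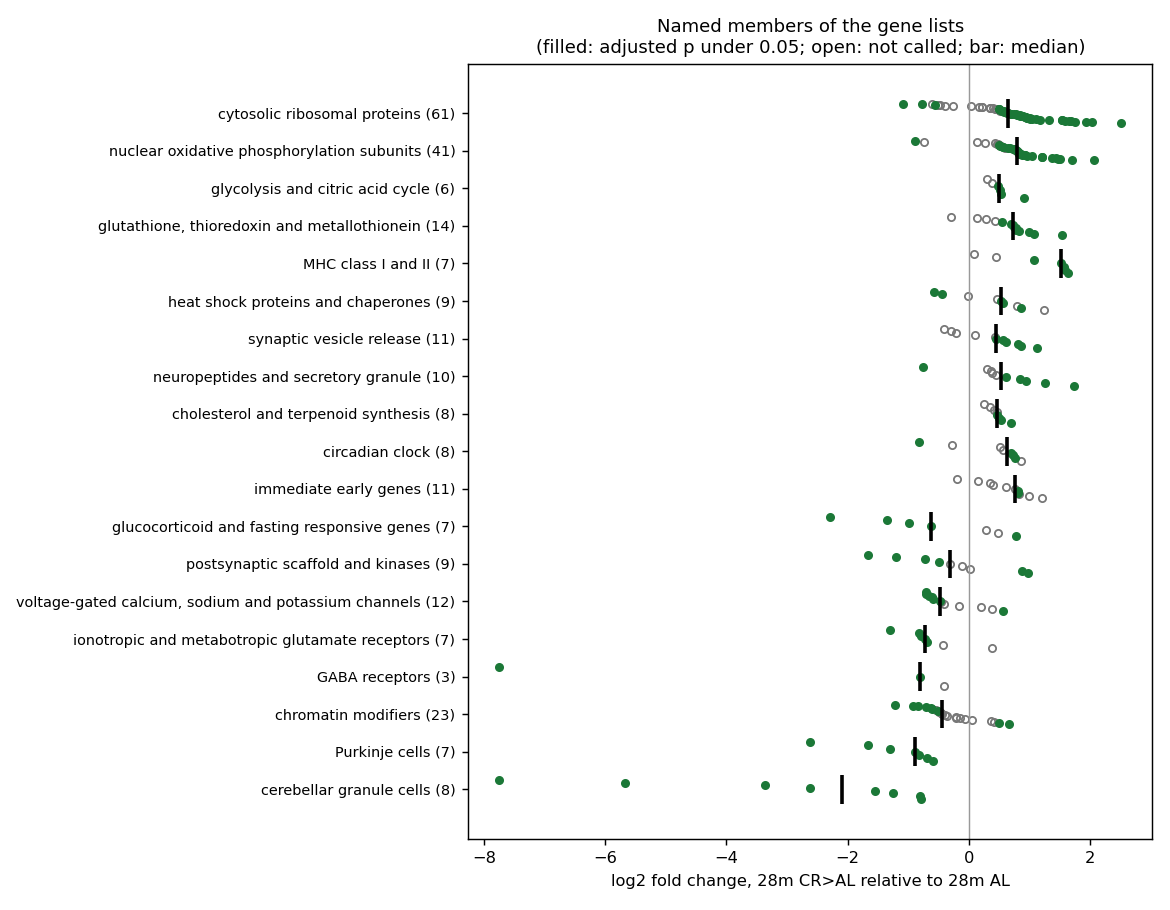
Log2 fold change of CR>AL relative to AL (x axis) for each named member of 19 gene lists (y axis, number of members in brackets), with filled points called, open points not called and bars at medians. Medians run from 1.52 for MHC genes and 0.80 for nuclear oxidative phosphorylation subunits to -2.08 for cerebellar granule cell markers.

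Of 23 named chromatin modifier genes 7 fell, 2 rose and 14 did not pass the test (median -0.44). H2afy, the macroH2A histone variant, measured 92, 70.2 and 115 CPM in AL and 54.4, 53.1 and 47.2 CPM in CR>AL and changed by -0.83 log2 units (SE 0.17, adjusted p = 0.0041). Brd1, a bromodomain protein of acetyltransferase complexes, measured 68.4, 75.1 and 75 CPM in AL and 42.6, 37.6 and 52.4 CPM in CR>AL and changed by -0.71 log2 units (SE 0.15, adjusted p = 0.007), lost without pool 26 (adjusted p = 0.059). Kansl1, a scaffold of the NSL acetyltransferase complex, changed by -0.61 log2 units (SE 0.15, adjusted p = 0.015), lost without pools 7, 9, 25 and 27 (adjusted p = 0.051, 0.077, 0.075 and 0.065, in that order). Rtf1, a subunit of the PAF complex of elongating polymerase, rose by 0.66 log2 units (SE 0.14, adjusted p = 0.0061), lost without pool 26 (adjusted p = 0.053). H2afy was at a log2 fold change of -0.44 (adjusted p = 0.2) without AL pools 7 and 9. Counts for chromatin were 2 higher and 3 lower without AL pools 7 and 9, and 2 higher and 2 lower with the cerebellar score as a covariate. The 9 calls in the list became 3 without pool 26 or 27 and 5 without pool 9 or 25.

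Smaller lists held few members, and their shares called are to be read against the 31.1% higher and 16.3% lower of all named genes. In the clock list 3 of 8 members rose and 1 fell, and Bhlhe40, a repressor of clock genes, rose by 0.74 log2 units (SE 0.14, adjusted p = 0.0033). Bhlhe40 was at a log2 fold change of 0.56 (adjusted p = 0.06) without AL pools 7 and 9 and 0.30 (adjusted p = 0.49) with the covariate. Without AL pools 7 and 9 the clock list had 1 call and with the covariate 0. With 1 pool fewer, the 4 calls were 2 without pool 9 or 27. Immediate early genes, which neurons induce on activity, had 2 of 11 higher. These were Arc, with 143, 122 and 78.9 CPM in AL and 196, 182 and 219 CPM in CR>AL and a log2 fold change of 0.81 (SE 0.17, adjusted p = 0.0066), and Jun, 0.82 (SE 0.24, adjusted p = 0.041), lost without pools 8, 9, 25, 26 and 27 (adjusted p = 0.08, 0.091, 0.11, 0.083 and 0.18, in that order). Counts for immediate early genes were 3 higher and 0 lower without AL pools 7 and 9, and 0 higher and 0 lower with the cerebellar score as a covariate. The 2 called members became 1 without pool 9 or 27, 4 without pool 7 and 5 without pool 8. Arc was at a log2 fold change of 0.71 (adjusted p = 0.0033) without AL pools 7 and 9 and 0.44 (adjusted p = 0.57) with the covariate. Sterol synthesis and transport had 4 of 8 higher, led by Fdps, farnesyl diphosphate synthase (log2 fold change 0.69, SE 0.15, adjusted p = 0.0071, lost without pools 26 and 27, adjusted p = 0.066 and 0.052, in that order), and no member was called without AL pools 7 and 9 or with the covariate. The 4 calls in the list became 0 without pool 26 or 27, 1 without pool 9 and 2 without pool 7 or 25. Chaperones had 3 of 9 higher and 2 lower, with Cryab, the small heat shock protein alpha-B crystallin, rising from 31.6, 42.6 and 49.1 CPM to 76.7, 77.7 and 68.5 CPM (log2 fold change 0.87, SE 0.16, adjusted p = 0.0028). Chaperone counts were 2 higher and 0 lower without AL pools 7 and 9, and 1 higher and 0 lower with the cerebellar score as a covariate. With 1 pool fewer, the 5 calls were 1 without pool 26, 2 without pool 9 or 27 and 3 without pool 25. Proteasome and ubiquitin genes had 2 of 5 higher, with 1 higher and 0 lower without AL pools 7 and 9, and 0 higher and 0 lower with the cerebellar score as a covariate. The 2 called members became 0 without pool 9, 25, 26 or 27 and 1 without pool 7. In the insulin and mTOR list 2 of 6 were higher and 1 lower, with 1 higher and 0 lower without AL pools 7 and 9, and 0 higher and 1 lower with the cerebellar score as a covariate. The 3 calls in the list became 1 without pool 9, 25, 26 or 27. Rheb, the GTPase that activates mTOR complex 1, measured 28.2, 22.9 and 25.9 CPM in AL and 60.9, 73.6 and 54.4 CPM in CR>AL, with pools far apart, and rose by 1.30 log2 units (SE 0.16, adjusted p = 7.8e-05), or 0.97 (adjusted p = 0.085) with the covariate. Ret, a neurotrophic receptor kinase, changed by -1.06 log2 units (SE 0.25, adjusted p = 0.014), lost without pools 9 and 26 (adjusted p = 0.062 and 0.087, in that order), and was -0.30 (adjusted p = 0.86) with the covariate.

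Cell type markers checked what the pools held. All 8 named granule cell markers and all 7 named Purkinje cell markers were lower in CR>AL, with medians of -2.08 and -0.88. Summed, granule cell markers gave 1795, 297 and 1699.9 CPM in AL and 258, 269.6 and 271 CPM in CR>AL, so that AL pool 8 was close to CR>AL. Without AL pools 7 and 9 the medians were -0.00067 and -0.39. This cannot serve as a separate check, because those pools were left out for their high score of these same 15 genes. Fat2, an atypical cadherin of granule cells, measured 288, 1.74 and 382 CPM in AL and 1.55, 2.83 and 8.47 CPM in CR>AL and had a log2 fold change of -5.67 (SE 0.94, adjusted p = 0.00094), which turned to 1.30 (adjusted p = 0.4) without those pools. Cbln1, a synaptic organiser that granule cells secrete, changed by -3.36 log2 units (SE 0.54, adjusted p = 0.0007), and by -0.38 (adjusted p = 0.75) without them. With 1 pool fewer, the 8 calls were 5 without pool 9 or 26. Interneuron markers split, with Npy and Sst higher and Reln (-0.80) and Gad1 (-0.50) lower, and the call of Gad1 was lost without pools 9, 25, 26 and 27 (adjusted p = 0.085, 0.06, 0.099 and 0.092, in that order). Interneuron counts were 1 higher and 0 lower without AL pools 7 and 9, and 1 higher and 0 lower with the cerebellar score as a covariate, and Npy was the member called in both. Reln was at a log2 fold change of -0.21 (adjusted p = 0.57) without AL pools 7 and 9 and -0.11 (adjusted p = 0.84) with the covariate, and Sst was at a log2 fold change of 0.41 (adjusted p = 0.23) without AL pools 7 and 9 and 0.62 (adjusted p = 0.16) with the covariate.

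Of the 4 named markers of cortical excitatory neurons, Nrgn, Lamp5 and Neurod6 rose and Fezf2 did not pass the test, and the call of Neurod6 was lost without pools 9, 26 and 27 (adjusted p = 0.14, 0.28 and 0.054, in that order). Counts for these markers were 2 higher and 0 lower without AL pools 7 and 9, and 0 higher and 0 lower with the cerebellar score as a covariate. Lamp5 measured 97.3, 119 and 120.4 CPM in AL and 171, 185 and 219.7 CPM in CR>AL and rose by 0.79 log2 units (SE 0.14, adjusted p = 0.0018), and was 0.67 (adjusted p = 0.094) with the covariate. The summed markers were 208, 257 and 222 CPM in AL and 359, 416 and 413 CPM in CR>AL, so the CR>AL pools were higher throughout. Of oligodendrocyte genes Mog, a surface protein of myelin, rose by 0.82 log2 units (SE 0.13, adjusted p = 0.00079) and Opalin by 0.81 log2 units (SE 0.14, adjusted p = 0.0017), which was 0.53 (adjusted p = 0.36) with the covariate. Of 4 astrocyte genes Gfap rose, Gjb6 (connexin 30) fell from 101, 97.7 and 98.6 CPM to 55.9, 57 and 58.3 CPM (log2 fold change -0.78, SE 0.13, adjusted p = 0.0011), Fgfr3 fell (log2 fold change -0.57, lost without pools 9, 25, 26 and 27, adjusted p = 0.07, 0.063, 0.12 and 0.054, in that order) and Aqp4 did not pass the test (log2 fold change 0.28, SE 0.12, adjusted p = 0.19). The blood genes Hba2 and Hba-a2, of haemoglobin, and Alb (albumin) were higher, and their sum was 81.6, 83.8 and 108 CPM in AL and 235, 221 and 303 CPM in CR>AL, against 176 to 513 CPM in the 18 other pools. All 3 were called without AL pools 7 and 9, and 2 with the covariate. Slc2a1, the glucose transporter of brain endothelium, measured 47.5, 58.9 and 38 CPM in AL and 96.9, 105 and 95.2 CPM in CR>AL and rose by 1.06 log2 units (SE 0.16, adjusted p = 0.00041). Ptgds, a prostaglandin D synthase of the meninges and oligodendrocytes, rose by 1.03 log2 units (SE 0.14, adjusted p = 0.00017). The other of the 2 named meningeal markers did not pass the test (log2 fold change -0.34, SE 0.25, adjusted p = 0.48). Of markers of striatal neurons Pde10a was lower, with 48.2, 111 and 93.5 CPM in AL and 39.4, 26.8 and 40.8 CPM in CR>AL (log2 fold change -1.23, SE 0.24, adjusted p = 0.0032), and Penk did not pass the test (log2 fold change 0.36, SE 0.18, adjusted p = 0.27). Thalamic markers had 2 of 6 lower, with 0 higher and 3 lower without AL pools 7 and 9, and 0 higher and 0 lower with the cerebellar score as a covariate. They had 0 calls without AL pool 9, 1 without CR>AL pool 25, 2 without CR>AL pool 27 and 3 without pool 7, 8 or 26. What these shifts in neighbouring tissue and blood contribute to the other lists was not tested.

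The AL pools are also the reference of the 6 other diets at 28 months, so changes that those diets share with CR>AL are not independent of it. Gfap was 1.57 to 2.09 in the 6 other diets relative to the same AL pools, Gstp1 1.22 to 1.50, Ndufa3 1.71 to 2.19, RT1-Da 1.02 to 1.74 and Htra1 -0.94 to -0.72 (log2 fold changes), beside 1.91, 1.54, 2.06, 1.63 and -1.0 for CR>AL. The mean CPM of CR>AL lay within the range of these 18 pools for 1134 of the 1202 DE genes (94.3%) and for 97.7% of all genes tested.

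To set CR>AL against diets other than plain AL, it was compared with lifelong ad libitum feeding with lipoic acid (AL+LA), and with lifelong restriction (CR), 3 pools each at 28 months. Against AL+LA 5 of 17230 genes (0.029%) were DE, 4 higher and 1 lower, and 1052 had an unadjusted p under 0.05. Against CR 20 (0.116%) were DE, 3 higher and 17 lower, and 926 had an unadjusted p under 0.05. DESeq2 called 4 and 23 genes and edgeR's exact test 13 and 34. The median size of the log2 fold changes of all genes was 0.17 in each, and 0.30 against AL. Of the genes leading the comparison with AL, Gfap was -0.19 (SE 0.12, adjusted p = 0.89) relative to AL+LA and 0.28 (SE 0.14, adjusted p = 0.93) relative to CR, Ndufa3 0.35 (SE 0.18, adjusted p = 0.84) and 0.063 (SE 0.18, adjusted p = 0.99), and RT1-Da -0.12 (SE 0.16, adjusted p = 0.95) and 0.018 (SE 0.17, adjusted p = 0.997). A p over the threshold does not show equal levels. Leaving out 1 pool moved the counts to 0 to 46 against AL+LA, with 0 without CR>AL pool 25 (1106 at an unadjusted p under 0.05), 1 without CR>AL pool 27, and 3 and 46 without AL+LA pools 35 and 34. Against CR they were 4, 7 and 13 without CR>AL pools 25, 26 and 27 and 36, 34 and 3 without CR pools 16, 17 and 18. Fitted with all 13 groups, neither comparison had a DE gene (638 and 633 at an unadjusted p under 0.05).

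Among genes lower in CR>AL than in CR were both cold-inducible RNA-binding proteins, Rbm3 and Cirbp, although 1 gene in all was called lower without CR pool 18 or CR>AL pool 25, and 3 without CR>AL pool 26. Rbm3, which is known to be induced by mild cooling, averaged 57.6 ± 9.42 CPM in CR>AL and 96.5 ± 5.3 CPM in CR (SD, n = 3 pools), and CR>AL was -0.75 (SE 0.13, adjusted p = 0.016) relative to CR. It averaged 61.2 ± 6.43 CPM in AL+LA and 70.8 ± 19.9 CPM in CR>AL+LA, diets that end on unlimited food. In the diets that end restricted it averaged 103 ± 2.53 (AL>CR), 100 ± 12.3 (AL+LA>CR) and 71.9 ± 10.7 CPM (CR>CR+LA). Lifelong AL, with 96.1 ± 19.6 CPM, stood with the restricted diets, and relative to it CR>AL decreased by 0.72 on the log2 scale (adjusted p = 0.01, lost without pools 7, 25 and 27, adjusted p = 0.052, 0.068 and 0.06, in that order). At 12 months Rbm3 averaged 44 ± 1.12 CPM in AL and 98.4 ± 14.6 CPM in CR (adjusted p = 0.0011). Cirbp averaged 24.6 ± 1.91 CPM in CR>AL and 43.8 ± 3.16 CPM in CR, a log2 fold change of -0.84 (SE 0.15, adjusted p = 0.024), and was -0.25 (SE 0.18, adjusted p = 0.47) relative to AL.

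Sars, a seryl-tRNA synthetase, averaged 39.9 ± 3.87 CPM in CR>AL, 68.9 ± 4.96 CPM in CR and 41.4 ± 8.86 CPM in AL, and was -0.80 (SE 0.13, adjusted p = 0.011) relative to CR. Ccdc47, a chaperone of the endoplasmic reticulum membrane, averaged 93.1 ± 7.87 and 149 ± 1.82 CPM in CR>AL and CR (log2 fold change -0.69, SE 0.11, adjusted p = 0.0093). ATP8 was also lower than in CR (log2 fold change -0.62, SE 0.12, adjusted p = 0.042). Of the 17 genes lower than in CR, 7 were Rn28s and the 6 identifiers that follow it, which took 12.4% to 13.2% of reads on genes in CR. The number of genes called in the same direction against AL+LA and CR was 4, and none had a name. ENSRNOG00000049138 averaged 95.8 ± 19 CPM in CR>AL, 45.2 ± 5.74 in AL+LA, 35.4 ± 11.8 in CR and 61.2 ± 26.7 in AL. ENSRNOG00000046170 averaged 53.1 ± 9.46, 23.3 ± 6.66, 21.5 ± 4.74 and 41.6 ± 19.4 CPM in the same order. Both were higher in CR>AL than in AL+LA and CR, with overlap between CR>AL and AL. ENSRNOG00000003936 was lower in CR>AL, 18.2 ± 0.396 CPM, than in AL+LA (37.3 ± 10.7), CR (37.7 ± 6.87) and AL (34.6 ± 5.59).

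Restriction could also be compared with AL in younger rats, in pools that the 28-month comparison does not use. At 6 months 379 of 17230 genes (2.2%) were DE between CR and AL, and at 12 months 372 (2.16%). Among the 12-month AL pools, pool 5 had 494091 reads on genes, the fewest of all 39 pools. Of the 760 genes higher in CR>AL at 28 months, 588 (77.4%) were higher in CR than in AL at 6 months and 569 (74.9%) at 12 months, against 48.3% and 51.0% of all genes. Their median log2 fold changes were 0.37 and 0.33. At 6 months 122 of them (16.1%) were DE higher and 3 DE lower, against 1.06% higher and 1.14% lower of all genes. At 12 months 66 (8.68%) were DE higher and 38 DE lower, against 0.73% and 1.43% of all genes. Of the 442 genes lower in CR>AL, 377 (85.3%) were lower in CR at 6 months and 368 (83.3%) at 12 months. The shares of all genes were 51.5% and 48.9%. Of these 442 genes 32 (7.24%) and 56 (12.7%) were DE in that direction, against 1.14% and 1.43% of all genes. In the other direction 2 were DE at each age. Gfap went the other way at 12 months, with a log2 fold change of -1.28 for CR relative to AL (adjusted p = 5.1e-05). RT1-Da did too, with -2.34. At 6 months Gfap was -0.29 (adjusted p = 0.54) and RT1-Da -0.49, and the CR and AL pools of both genes overlapped. Ndufa3 was 1.54 (adjusted p = 0.002) at 6 months and 0.75 (adjusted p = 0.27) at 12 months. Rpl35 was 1.62 (adjusted p = 0.002) and 0.88 (adjusted p = 0.027) at these ages. AL pools without lipoic acid had fewer unaligned reads at every age (27.5% to 36.1% in 9 pools), and the cerebellar score was also high in 6-month AL pool 2 and 12-month AL pools 5 and 6. Leaving out those 3 pools was a choice made after seeing the data, and at 12 months it left AL pool 4 alone. At 6 and 12 months 74.5% and 75.8% of the 760 genes then had the 28-month direction, against 49.2% and 52.4% of all genes. Of the 442, 71.9% and 69.5% had it, against 50.6% and 47.4% of all genes. At 6 months 68 of the 760 (8.95%) and 11 of the 442 (2.49%) were DE in it, against 0.47% and 0.40% of all genes. The median of the 442 was -0.24 and -0.17 at 6 and 12 months. The part of the unaligned share in this was not tested.

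**Figure D5:**
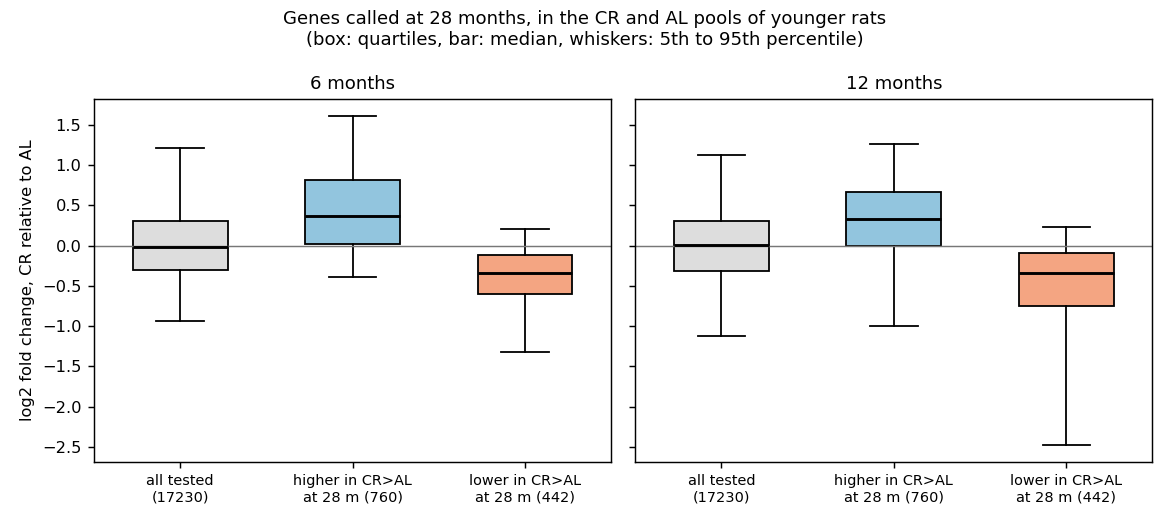
Log2 fold change of CR relative to AL (y axis) at 6 and 12 months for all 17230 genes tested, the 760 called higher and the 442 called lower in CR>AL at 28 months. Boxes span quartiles, bars are medians and whiskers the 5th to 95th percentiles, and the medians of the 760 lie at 0.37 and 0.33 and those of the 442 at -0.34 at both ages.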

How the data were processed

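Total RNA of cortex was pooled from rats 2 by 2, cleared of ribosomal RNA and sequenced as short forward reads on a SOLiD instrument. The authors aligned the colour space reads to rat build rn5 with Bowtie, allowing no multiple mapping, and HTSeq gave the number of reads for each Ensembl gene. The deposited values are raw counts per gene, with no normalization, and lines that name no gene (79.9% to 84.0% of aligned reads in the 39 libraries fell on none) were kept out of library sizes and tests. Strand of counting is not given in the sources used here.

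A gene was tested if it reached 1 CPM in 3 or more of all 39 libraries, which 17230 of 26123 did. The deposited counts were scaled by TMM and each comparison was fitted on its own 6 libraries by the quasi-likelihood test of edgeR (version 4.0.16, R 4.3.3), adjusted by Benjamini-Hochberg over all tested genes. Standard errors were derived from the fold change and its F statistic. Code was checked on simulated data. Among the alternatives, DESeq2 had version 1.42.0, and the others were an exact test in edgeR, RLE scaling, no count filter or at least 10 counts in each library, all 13 groups fitted jointly, the score of 15 cerebellar markers as a covariate, and pools left out. The comparison at 6 and 12 months, and its fit without high-scoring AL pools, were added after seeing the data.

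Symbols came from supplementary gene tables of the study and cover 1669 tested identifiers. Genes named were the 12 of smallest p in each direction among called genes with separate pools (no locus numbers and no cerebellar markers), up to 4 of smallest p from each list, and up to 5 in each direction against AL+LA and CR. Cd74, class I genes, and some respiratory and antioxidant genes are outside that rule and were chosen after their values were seen, as were the unnamed identifiers. Some genes that the rule picks are not reported here. Members and lists were chosen with earlier results of these data known. The replicates of a diet are pools of different rats, and p-values measure the spread between these pools, which includes differences in the tissue they hold. Gene positions and lengths were not used for the counts.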

Additional observations from a re-analysis of the deposited data

How the results depend on the processing

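Against AL, the 1202 DE genes became 644 with the cerebellar score as a covariate and 516 to 1978 when 1 pool was left out, and 858 to 1707 under the other alternatives. The log2 fold change of Gabra6, Fat2 and Car8 turned positive both with the covariate and without AL pools 7 and 9. In that order the values were 0.50 and 2.40 (Gabra6), 1.21 and 1.30 (Fat2) and 0.22 and 0.32 (Car8). Cbln1 (-0.25 and -0.38) and Etv1 (-0.32 and -0.16), also members of the score, stayed negative. The 3 genes that turned are members of the score and both pools were chosen for it, so their turn is no separate check. Of 107 named called genes, 54 others lost their call with the covariate, 44 without both pools, 7 with DESeq2 and 14 with all 13 groups fitted jointly. Against AL+LA, 5 genes became 13 (exact test), 66 (no filter), 2 (at least 10 counts in each library) and 0 to 46 with 1 pool left out. Against CR, 20 became 34, 78, 10 and 3 to 36 in the same order. With all 13 groups fitted jointly in edgeR both had 0 (638 and 633 genes at an unadjusted p under 0.05), and with the covariate too 0 (683 and 678), while DESeq2 called 4 and 23. The causes were not tested. The difference in unaligned reads was 7.25 to 10.1 percentage points with 1 pool left out. No paired analysis was possible because each pool has its own number and the groups share none. Genes of few reads limit precision, since the pools hold 3109488 to 4562089 reads on genes.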
